A study of Mus musculus with 4 samples.

Results

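The Myt1 family of zinc finger transcription factors was followed in bulk RNA-seq of mouse neurons made from embryonic stem (ES) cells. Its members were taken by gene symbol, Myt1, Myt1l and St18, which are 3 of the 34968 symbols that all 4 libraries list. Members of this family bind DNA through zinc fingers in which cysteines and a histidine hold the metal, and several of their targets are known to be silenced through recruited histone deacetylases. Myt1 was first found as a protein that binds a myelin gene promoter and acts in early neurons and oligodendrocyte progenitors. Myt1l is kept on in nearly all neurons, where it holds down genes of other lineages. St18 has also been studied outside the brain, in pancreatic islets and skin, and is present in the embryonic medial ganglionic eminence (MGE). The MGE is the embryonic source of many GABAergic interneurons and of projection neurons of the globus pallidus.

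Both lines came from one parental ES line, Dlx6-Cre; Ai9 on strain C57/BL6, in which Cre turns on tdTomato in ventral forebrain neurons. The line named N/D received Nkx2-1, expressed from a Nestin promoter together with the transactivator tTA, and Dlx2 under the tetracycline-responsive element that tTA drives. N/D/S received the same Nkx2-1 construct and a responsive element that carries Dlx2 and epitope-tagged St18. The cells of both lines were differentiated as embryoid bodies in the presence of the Wnt inhibitor XAV-939 and the hedgehog agonist SAG. tdTomato+ cells were sorted on day 12, and each line gave 2 libraries. The lines were grown from drug-selected clones, so a difference between them can also be one between clones. Whether the 2 libraries of a line came from separate differentiations is not stated, and p-values then measure only the spread between these libraries.

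The 3 genes encode related proteins from separate loci of GRCm38, all on the plus strand. Myt1 lies on chromosome 2 from 181763332 to 181827797, Myt1l on chromosome 12 from 29528384 to 29923213, and St18 on chromosome 1 from 6487231 to 6860940. The longest annotated coding sequences held 1169 codons for Myt1, 1187 for Myt1l and 1045 for St18. A finger was counted where 4 codons separated a pair of cysteine codons, 12 more came before a histidine codon and 5 more before a last cysteine codon. By that pattern Myt1 had 7 fingers, and Myt1l and St18 had 6 each. Myt1 and Myt1l carried 1 finger near the start of the coding sequence, at codons 72 and 31, whereas the first finger of St18 began only at codon 366. A middle pair of fingers was present in all 3 genes, followed by a group of 4 in Myt1 and St18 and of 3 in Myt1l.

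**Figure D1:**
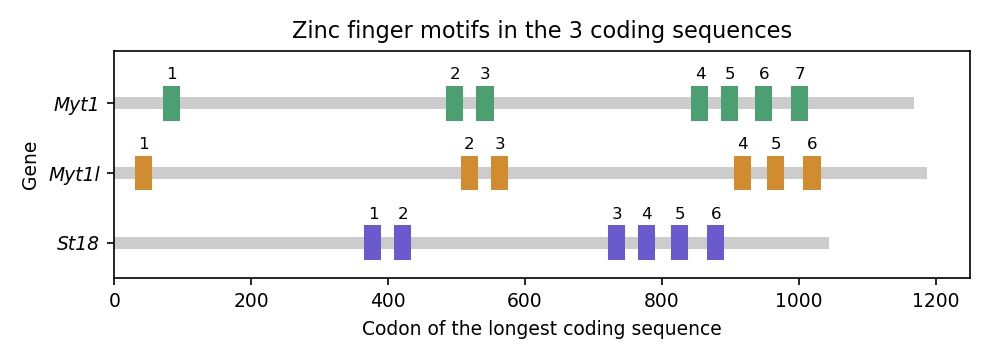
Position of each zinc finger pattern along the longest coding sequence of Myt1, Myt1l and St18, in codons from the start. Grey bars give the coding length and numbered coloured blocks the fingers, 7 in Myt1, 6 in Myt1l and 6 in St18; St18 has none before codon 366.

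The fingers are shown because they are the domain the members share, where a read of one could resemble another. The closest set, 1 finger from each gene, is the first of the middle pair. It lies within exon 8 of Myt1 (chr2:181801049-181801123), exon 11 of Myt1l (chr12:29832320-29832394) and exon 9 of St18 (chr1:6807575-6807649), counted in the transcript with the longest coding sequence. Capitals mark the codons of the cysteines and the histidine.
Myt1 finger 2: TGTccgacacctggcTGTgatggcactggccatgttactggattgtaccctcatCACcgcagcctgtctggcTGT
Myt1l finger 2: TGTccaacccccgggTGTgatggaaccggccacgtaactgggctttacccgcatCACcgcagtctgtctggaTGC
St18 finger 1: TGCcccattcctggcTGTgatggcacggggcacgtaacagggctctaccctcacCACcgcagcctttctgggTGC

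Over these 75 bases Myt1 and Myt1l were 80% identical, and St18 was 78.7% identical to either. Another set, from the group near the end of the coding sequence, finger 4 of each gene, was nearly as close (77.8% on average), and each of its sequences is joined across an intron (chr2:181811166-181811367, chr12:29886124-29893374 and chr1:6844122-6844303, intron included).
Myt1 finger 4: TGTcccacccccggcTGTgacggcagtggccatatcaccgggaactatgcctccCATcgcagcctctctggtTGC
Myt1l finger 4: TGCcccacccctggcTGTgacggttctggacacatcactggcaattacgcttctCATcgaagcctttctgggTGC
St18 finger 4: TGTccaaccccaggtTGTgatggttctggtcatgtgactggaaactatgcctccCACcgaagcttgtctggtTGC

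Between members, the identity of 120 pairs of fingers ran from 48% to 80% with a median of 65.3%. The longest run of bases common to the coding sequences of any 2 members was 17 bases. For Myt1 and St18 that run lay within the printed fingers and read cctggctgtgatggcac. No stretch of 31 bases, a length on which kallisto matches reads, was shared between transcripts of different members in the GENCODE M21 annotation. Of the distinct 31-base stretches, those found in any other gene made up 0.258% for Myt1, 3.8% for Myt1l and 0% for St18. Myt1l overlaps 2 annotated genes of the minus strand, Gm20208 and C630031E19Rik, which were not analysed here, and whether counting used strand is not stated.

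All 3 members had values above 0 in each library. Values are in TPM, a transcript abundance relative to the library total that corrects for transcript length and keeps no read counts, so the depth behind them is unknown. The labels were first checked on St18, the factor that sets N/D/S apart. The N/D/S libraries measured 44.4 TPM of St18 (replicate 1) and 15.9 TPM (replicate 2). The N/D libraries measured 28.5 TPM (replicate 1) and 26.6 TPM (replicate 2). The N/D values thus lay between those of N/D/S, and the library labelled N/D/S replicate 2 had less St18 than either N/D library, against its label. Which libraries carry introduced St18 therefore rests on the labels, and N/D/S and N/D stand for libraries so labelled in every direction given. Whether a St18 TPM includes reads from the introduced copy is not known.

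Myt1l, the member tied to mature neuronal identity, reached 71.4 TPM in replicate 1 of N/D/S but only 9.17 TPM in replicate 2. The N/D libraries held 82.6 TPM (replicate 1) and 74.8 TPM (replicate 2). The N/D/S replicate 2 library thus stood far below the others, which were close together, and both N/D/S values lay under both N/D values. Among the 12975 genes tested, those with at least 1 TPM in no fewer than 2 libraries, 8.23% separated the lines in this direction, and 8.69% in the other. In a bulk sample, fewer cells of a type and less RNA per cell cannot be told apart.

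Myt1 came to 24.6 TPM (replicate 1) and 4.01 TPM (replicate 2) for N/D/S, and to 14.6 TPM for N/D replicate 2. In the remaining library, N/D replicate 1, it was listed at 0.0201 TPM, close to absent. The lines overlapped for Myt1, with an N/D library on either side of the lower N/D/S value.

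**Figure D2:**
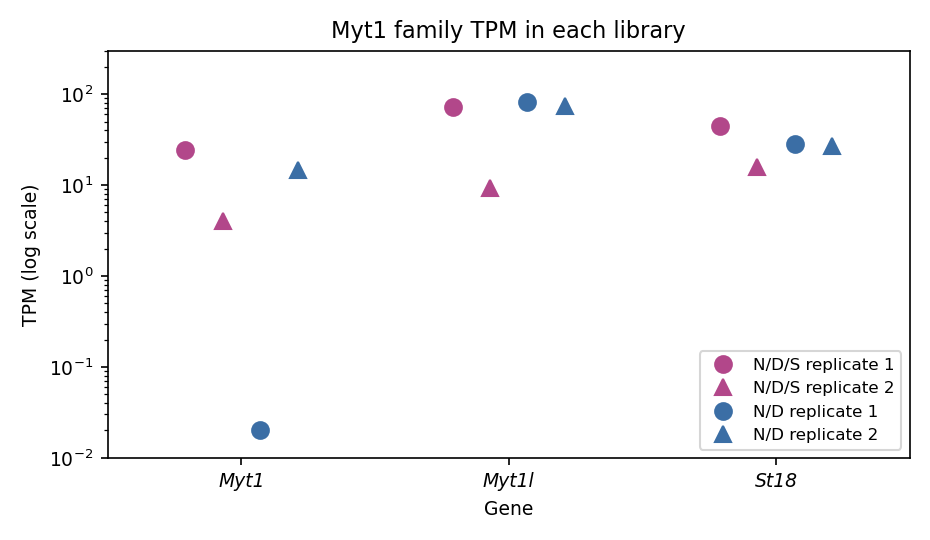
TPM of Myt1, Myt1l and St18 on a log axis, with 1 point for each of the 4 libraries; colour gives the line and shape the replicate number. Myt1l is between 71.4 and 82.6 TPM except at 9.17 in N/D/S replicate 2, St18 stays between 15.9 and 44.4, and Myt1 is at 0.0201 in N/D replicate 1.

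The order of the members was Myt1l, then St18, then Myt1 in 3 of the 4 libraries, on the TPM scale. In N/D/S replicate 2, St18 stood above Myt1l, at 1.73 times its TPM. Elsewhere Myt1l was the higher, by 1.61 times for N/D/S replicate 1 and by 2.89 and 2.81 times for the N/D libraries. In N/D the mean was 78.7 ± 5.49 TPM for Myt1l, 27.6 ± 1.36 for St18 and 7.32 ± 10.3 for Myt1 (SD, n = 2). In N/D/S it was 40.3 ± 44.0 TPM for Myt1l, 30.2 ± 20.2 for St18 and 14.3 ± 14.5 for Myt1 (SD, n = 2). Neighbours in this order did not differ beyond their spread in N/D/S, and in N/D the values of the members did not overlap. Relative to other genes, Myt1l exceeded 78.9%, 84.2% and 80.9% of the genes tested in the first N/D/S library and the pair of N/D libraries, and 48.1% of them in the second N/D/S library. St18 was steadier by rank, above 68.9% and 59.2% of genes for N/D/S and above 66.3% and 59.4% for N/D, in replicate order. In replicate 2, the St18 ranks of the lines were thus nearly equal although the TPM were 15.9 in N/D/S and 26.6 in N/D.

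The comparison of N/D/S with N/D asks what added St18 does to MGE-like neurons. Fold changes were fitted with limma on log2(TPM + 1), and 0 of the 3 members passed an adjusted p of 0.05. No gene tested passed it (0% of all), with 0.0617% of them at an unadjusted p under 0.05 (8 genes, none a member). For St18 the log2 fold change (N/D/S minus N/D) was −0.04 (standard error 1.03, 95% interval −2.47 to 2.39, limma, Benjamini-Hochberg adjusted p = 1). Its sign turned with quantile normalization and with scaling to neuron markers, and without either N/D/S replicate 2 or N/D replicate 1. That interval spans large changes in either direction, so a similar level in the lines is not shown.

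For Myt1l the log2 fold change was −1.55 (standard error 1.22, 95% interval −4.43 to 1.33, limma, Benjamini-Hochberg adjusted p = 1), and 2.19% of genes tested had a lower one. It was below 0 under every scaling tried, but its size depended on which library of N/D/S was kept. Without N/D/S replicate 2 it was −0.14, and without N/D/S replicate 1 it was −2.97. For Myt1 the value was 1.504 (standard error 1.55, 95% interval −2.16 to 5.17, limma, Benjamini-Hochberg adjusted p = 1). It was −0.46 without N/D replicate 1, where Myt1 was nearly absent. Without N/D replicate 2 it was 3.47. Each fit without an N/D library gave the members the same standard error, so only effect sizes are read from these fits. With all libraries, the median over all genes tested was 0.26, above St18 and below Myt1. St18 lay above the median with quantile normalization (0.083 against −0.05), with at least 1 TPM required in every library (−0.04 against −0.15), without N/D/S replicate 2 (0.67 against 0.57) and without N/D replicate 1 (0.00577 against −0.29). Myt1 lay below it without N/D replicate 1 (−0.46 against −0.29).

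**Figure D3:**
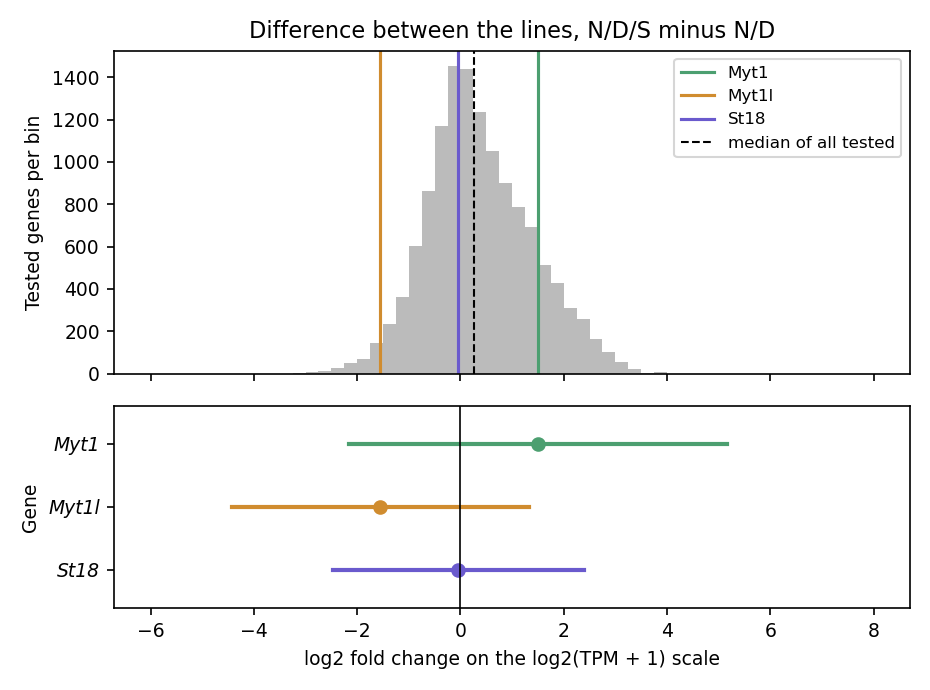
Upper panel, histogram of log2 fold changes (N/D/S minus N/D) for the 12975 genes tested, in bins on the log2(TPM + 1) scale, with lines for Myt1 (1.504), Myt1l (−1.55), St18 (−0.04) and the median (0.26). Lower panel, the same 3 values as points with 95% intervals from limma as bars, each of which includes 0.

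Library by library, the members separated differently. Each N/D/S library was compared with each N/D library as a difference of log2(TPM + 1). Myt1l was lower in N/D/S in all 4 of these comparisons, by only −0.21 and −0.07 for N/D/S replicate 1 and by −3.04 and −2.90 for N/D/S replicate 2. St18 was 0.62 and 0.72 higher in N/D/S replicate 1 than in the N/D libraries, and in N/D/S replicate 2 it differed from them by −0.81 and −0.71. Libraries of the same number were not taken as pairs. Set side by side, they gave a change of sign or a tie for 66.3% of genes tested. A further 17.9% were lower in N/D/S in both, Myt1l among them. Myt1 gave 4.65 and 2.30 against N/D replicate 1, and 0.71 and −1.64 against N/D replicate 2. Between the libraries of a line, St18 differed by 1.43 within N/D/S and 0.10 within N/D, and Myt1l by 2.83 and 0.14. For Myt1 the differences were 2.35 and −3.94 (replicate 1 minus replicate 2), so its N/D libraries were the further apart, while for St18 and Myt1l the N/D/S libraries were.

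The low values of single libraries were set beside those of other genes. For N/D replicate 1, 9.99% of the genes that reached 10 TPM in all of the other 3 libraries were listed at 0, against at most 0.0434% in the others. Myt1 was 0.00139 times its mean of the other libraries there, and 32.5% of the 4025 genes of like level (a mean in the other libraries within 2-fold of that of Myt1) were as low or lower. Myt1l in N/D/S replicate 2 was 0.12 times its mean of the other libraries, and 1.13% of the 2822 genes of like level (32 genes) were as low or lower in that library. The low Myt1 value was thus common for its library, and the low Myt1l value was not. St18 in N/D/S replicate 2 was at 0.479 times its mean of the other libraries, as were 38.9% of like genes or lower. These are descriptions of single libraries, with no test.

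The library with the low Myt1l value was also lowest for most neuron markers, but not for their sum. All 8 markers of neurons, the cell type in the labels, exceeded 1 TPM in each library. Their sums were 5087 and 3369 TPM for N/D/S and 4507 and 3311 TPM for N/D, in replicate order. All 7 GABAergic and ventral forebrain markers also exceeded 1 TPM in each library. Of the 8 neuron markers, 7 were lowest in N/D/S replicate 2, a library in which 30.7% of all genes tested were lowest. Dcx, a microtubule protein of migrating neurons, had 17.9 TPM there against 69.0 to 122.5 in the other libraries, and the neuronal splicing factor Rbfox3 had 12.3 against 42.8 to 47.2. Tubb3, a neuronal tubulin, was the exception at 2455 TPM, within the range of the others. Of the 7 GABAergic and ventral forebrain markers, 2 were lowest in this N/D/S library and 5 in N/D replicate 1. Of all genes tested, 30.7% and 56.3% were lowest in these libraries, so both counts were near the background. The summed TPM of marker lists of 4 other cell types was higher in replicate 2 of both lines than in replicate 1, although single genes of a list could go the other way. The sum over 7 oligodendrocyte lineage genes was 63.0 TPM (N/D/S) and 194.5 TPM (N/D) in replicate 2, against 17.9 and 0.00315 TPM in replicate 1. In N/D replicate 1, 6 of the 7 were at 0, in a library with 13426 of all 34968 symbols above 0. The 5 astrocyte genes summed to 32.8 and 40.5 TPM in the replicate 2 libraries, N/D/S first, against 7.43 and 5.39 in replicate 1. The 4 pluripotency genes summed to 26.9 and 20.1 TPM in replicate 2 against 0.565 and 0.247 in replicate 1, and the 5 mesenchymal genes to 24.4 and 37.4 against 8.27 and 0.0778. The 3 endothelial genes summed to 2.87 to 38.8 TPM, almost all from Pecam1, and Cdh5 was at or near 0 throughout. The 7 progenitor genes summed to 194.5 TPM in N/D/S replicate 2 and to 302.6 to 328.2 in the other libraries. The part of other cells in the Myt1l and Myt1 values was not tested.

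When TPM were divided by a factor from the geometric mean of the 8 neuron markers, St18 came to 31.7 and 31.5 for N/D/S and to 24.8 and 21.6 for N/D, in replicate order. On this scale both N/D/S values were above both N/D values, as was so for 19.9% of genes tested. The log2 fold change of St18 was then 0.43 (standard error 1.12, limma, Benjamini-Hochberg adjusted p = 0.999), below the median of all genes on this scale, 0.65. Myt1l remained apart after the same scaling, at 50.9 and 18.2 in N/D/S against 71.9 and 60.9 in N/D, and 3.91% of genes tested had both N/D/S libraries below both N/D libraries. The fitted log2 difference of Myt1l became −1.09 (standard error 1.15, limma, Benjamini-Hochberg adjusted p = 0.999). Myt1 stood at 17.5 and 7.95 in N/D/S against 0.0175 and 11.9 in N/D.

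The make-up of the family within a library does not depend on scaling between libraries. The summed TPM of the 3 members was 140.5 and 29.1 for N/D/S against 111.1 and 116.0 for N/D, in replicate order. St18 made up 31.6% and 54.7% of that sum in N/D/S and 25.7% and 22.9% in N/D, so both N/D/S libraries had the larger St18 share. Myt1l made up 50.9% and 31.5% in N/D/S and 74.3% and 64.5% in N/D, with the lines again apart. Myt1 was 17.5% and 13.8% of the sum in N/D/S and 0.0181% and 12.6% in N/D.

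**Figure D4:**
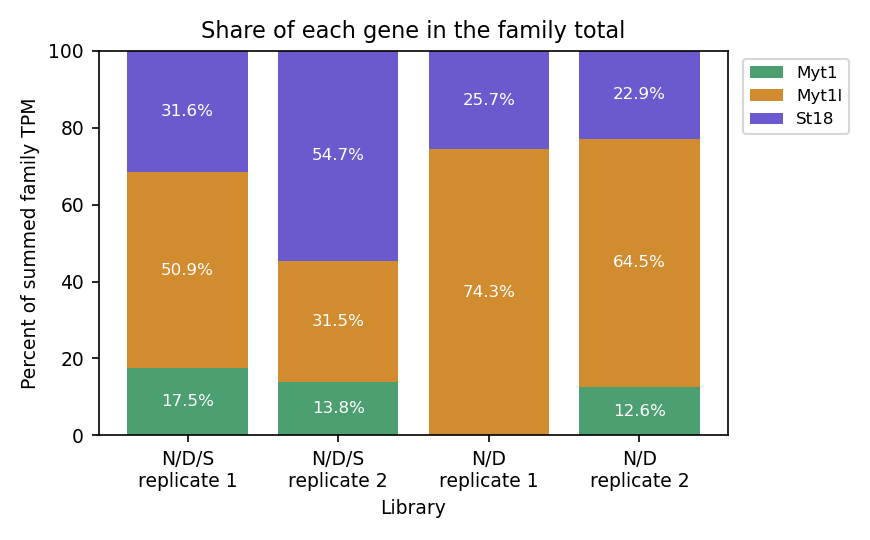
Stacked bars of the percent of the summed TPM of Myt1, Myt1l and St18 that each gene holds in each of the 4 libraries. St18 holds 31.6% and 54.7% for N/D/S against 25.7% and 22.9% for N/D; the 0.0181% of Myt1 in N/D replicate 1 is too small to see.

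The mean share of St18 was 18.9 percentage points above that of N/D for N/D/S, and that of Myt1l differed by −28.2 points. That of Myt1 was 9.34 points higher. Dropping N/D/S replicate 2 gave a St18 difference of 7.35 points, and dropping N/D/S replicate 1 gave 30.4. The Myt1l difference was −18.5 points without N/D/S replicate 2, and the Myt1 difference was 3.04 with N/D replicate 1 dropped and 15.6 with N/D replicate 2 dropped. For each of the 3, a two-sided exact permutation test over the libraries gave p = 0.333, the smallest that 2 against 2 allows, so this design cannot reach 0.05. The same separation was frequent when other genes were set against Myt1l. For 44.8% of genes tested, TPM relative to Myt1l was higher in both N/D/S libraries than in both N/D libraries, as it was for St18 at 0.622 and 1.73 against 0.345 and 0.356. TPM relative to St18 was lower in both N/D/S libraries for 11.6% of genes, Myt1l among them. Counted on sums of log2(TPM + 1), the St18 shares overlapped and their means differed by 0.167 points (exact permutation p = 1). The Myt1 shares then overlapped too, with means 12.9 points apart (exact permutation p = 0.667), and the Myt1l difference was −13.0 points (exact permutation p = 0.333).

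Both lines also carry introduced Nkx2-1, a homeobox factor without which the MGE is respecified, and Dlx2, a homeobox factor that turns on genes of GABA synthesis. With St18 they are 3 genes, of which limma called 0 higher and 0 lower (0 at an unadjusted p under 0.05). Nkx2-1 stood at 39.6 and 18.3 TPM in N/D/S against 16.5 and 48.6 in N/D, and Dlx2 stood at 258.6 and 147.5 in N/D/S against 71.1 and 187.8 in N/D, in replicate order. The lines overlapped for both genes, as they did for St18.

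Genes that work with the family were described from lists. Myt1 and Myt1l can recruit the Sin3 and histone deacetylase corepressors and Myt1 the demethylase LSD1, encoded by Kdm1a. Of 7 such genes, all 7 were tested, 0 were called higher and 0 lower (0 at an unadjusted p under 0.05 from limma), and the lines overlapped for all 7. Of all genes tested, 16.9% did not overlap in either direction, so a list of this size overlapping in full is near the background. Their median log2 fold change was 0.35, near the 0.26 of all genes. Sin3b had the highest level of the list in each library but 1, at 435.6 and 433.2 TPM in N/D/S against 557.9 and 295.4 in N/D, whereas its paralog Sin3a had 17.5 and 5.79 against 0.265 and 11.2. Sin3a was near absent in N/D replicate 1, as Myt1 was. Hdac2 stood at 401.7 and 182.3 TPM in N/D/S against 202.4 and 427.5 in N/D. Hdac1, its close paralog, had 90.8 and 67.7 against 37.2 and 101.3. Kdm1a stood at 236.4 and 77.2 TPM in N/D/S against 48.5 and 153.8 in N/D. Rcor2, a CoREST scaffold of neural cells, had 78.7 and 48.7 against 129.7 and 61.4, and its relative Rcor1 had 13.7 and 0.483 against 0 and 11.7. Rcor1 was thus lowest in the libraries where Myt1 was lowest, whereas Rcor2 was highest in N/D replicate 1 and lowest in N/D/S replicate 2.

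Notch signalling holds progenitors undifferentiated through Hes and Hey repressors, and the family is known to oppose it. Of 12 Notch pathway genes, 9 were tested, and 0 were called higher and 0 lower by limma, with 1 (Hes5) at an unadjusted p under 0.05, beside 0.0617% of all genes tested. Both N/D/S values were above both N/D values for 3 of them, Notch1, Dll3 and Hes5, beside 8.69% of all genes tested, and each of these was at 0 in N/D replicate 1. The median log2 fold change of the 9 was 0.95, against 0.26 over all genes tested. In N/D replicate 1, 7 of the 12 were at 0, and 13426 of all 34968 symbols were above 0 there. Hes5, a Notch effector, stood at 61.8 and 69.2 TPM in N/D/S against 0 and 22.6 in N/D (unadjusted p = 0.0446 and limma, Benjamini-Hochberg adjusted p = 1). Hes1, the effector that Myt1 is known to repress, had the opposite order of line means, at 11.7 and 11.1 TPM in N/D/S against 52.3 and 11.4 in N/D. In 3 libraries Hes1 was nearly equal while Myt1 ranged from 4.01 to 24.6 TPM. The high Hes1 value came from a single library, N/D replicate 1, with 0.0201 TPM of Myt1. A link between the levels of these genes was not tested. The ligand Dll1 was also highest there, at 48.4 TPM against 8.61 to 20.6 in the others, while its relative Dll3 was at 0 there and at 24.6 to 30.98 in the others. Rbpj, the DNA-binding partner of Notch, stood at 16.4 and 4.95 TPM in N/D/S against 11.3 and 13.4 in N/D. Hey1 stood at 6.98 and 11.9 TPM in N/D/S against 0 and 11.0 in N/D. Numb, an inhibitor of Notch, stood at 15.2 and 0.00676 TPM in N/D/S against 34.9 and 7.35 in N/D.

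Proneural and neuronal-conversion factors act upstream of or beside Myt1l. Of 10 in the list, 9 were tested, 0 were called higher and 0 lower (0 at an unadjusted p under 0.05 from limma), the lines overlapped for all 9 (16.9% of all genes tested did not overlap), and their median log2 fold change was −0.35, against 0.26 over all genes tested. Pou3f2, a POU factor used together with Myt1l in neuronal conversion, stood at 7.97 and 0.906 TPM in N/D/S against 15.9 and 4.69 in N/D. Libraries of the same number, though not taken as pairs, were also set side by side. N/D/S was then lower in both for 2 of the 9, Pou3f2 among them, beside 17.9% of all genes tested. The SoxC factor Sox11 was at 124.6 TPM in N/D/S replicate 1, at 118.9 and 132.4 in N/D and at 31.3 in N/D/S replicate 2, so that it was lowest in the same library as Myt1l. Sox4 stood at 313.8 and 96.7 TPM in N/D/S against 141.6 and 355.6 in N/D. Neurog1 reached 20.04 TPM in N/D replicate 1 alone and was at most 1.88 elsewhere, and Neurog2 stood at 10.7 and 2.79 in N/D/S against 0 and 5.64 in N/D. Insm1, a zinc finger factor of newborn neurons and endocrine cells, stood at 27.3 and 37.3 TPM in N/D/S against 0 and 56.6 in N/D.

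**Figure D5:**
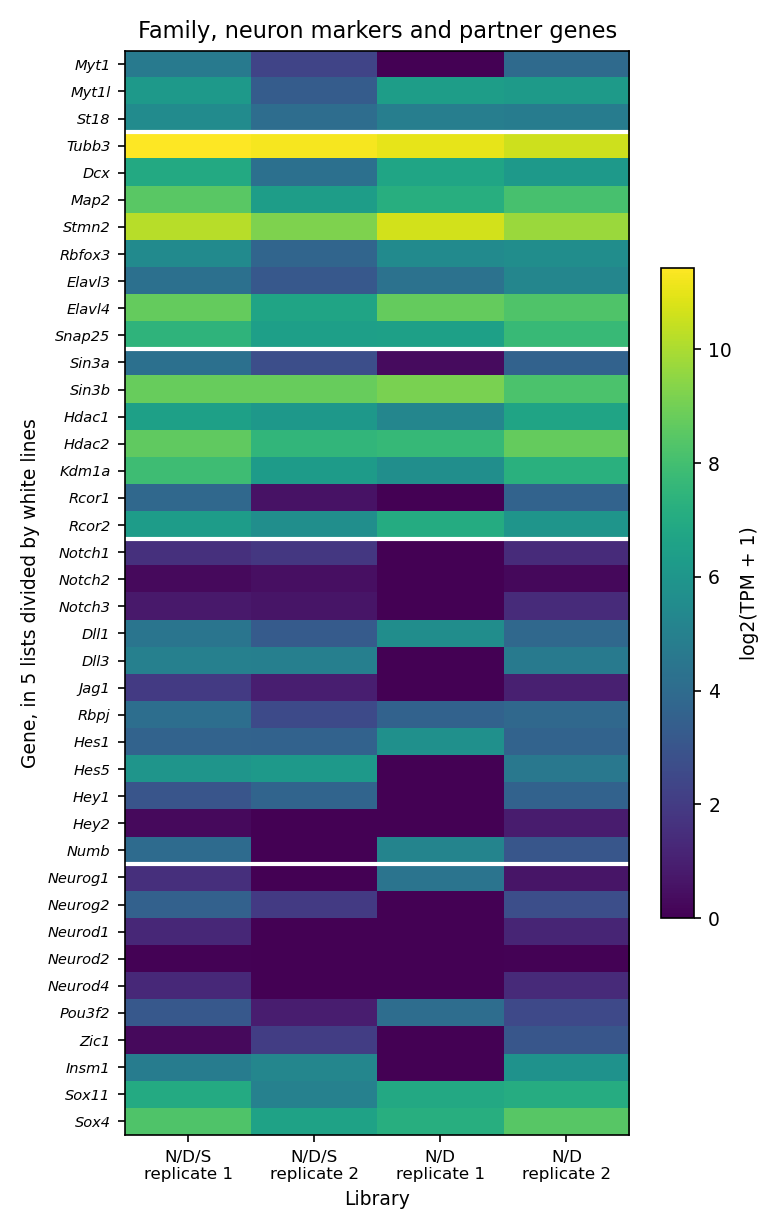
Heat map of log2(TPM + 1) for the 3 family members, 8 neuron markers, 7 corepressor genes, 12 Notch pathway genes and 10 proneural or neuronal-conversion factors (rows) in the 4 libraries (columns). Dark cells in the N/D replicate 1 column mark genes at or near 0 there, such as Myt1, Hes5 and Insm1, and Myt1l, Dcx, Rbfox3 and Sox11 are lower in N/D/S replicate 2 than in the other columns.

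The genes whose profile was most like that of each member were named by the root mean square distance of log2(TPM + 1) over the 4 libraries, after each gene was centred on its own mean. The nearest to St18 were Bnip3, Glis2, Gm29394, Pacs1 and Acat2, at distances of 0.0432 to 0.0612. Bnip3, a mitochondrial protein of autophagy and cell death, stood at 363.0 and 134.9 TPM in N/D/S against 219.4 and 217.6 in N/D. Nearest to Myt1l were Fam120a, Prrg3, Trim33, Plcxd3 and Dmtf1, at 0.06 to 0.119. Dmtf1, a Myb-like transcription factor, stood at 36.1 and 4.57 TPM in N/D/S against 49.0 and 35.3 in N/D. Those nearest to Myt1 were Gm48398, Atl2, Ing2, Wdr7 and Zfp251, at 0.0402 to 0.0728, all under 0.3 TPM in N/D replicate 1. The members were not close to each other. St18 was 1955th in distance to Myt1l (0.904), and Myt1 was 10700th (2.11). With 4 points a profile holds little information, and many genes share the low values of single libraries.

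Genes beside each member on its chromosome were also read, as the nearest tested gene on each side. Next to Myt1, the opioid-related receptor gene Oprl1 stood at 59.4 and 25.7 TPM in N/D/S against 47.1 and 45.0 in N/D, and Pcmtd2 stood at 35.2 and 14.8 in N/D/S against 0 and 19.5 in N/D. Pcmtd2 was thus listed at 0 in the library where Myt1 was nearly so, and Oprl1 was not. Next to St18, Pcmtd1 stood at 22.9 and 4.75 TPM in N/D/S against 0.0127 and 24.2 in N/D, and Gm19026 was under 1.5 TPM in each library. Beside Myt1l, Eipr1 stood at 64.7 and 59.8 TPM in N/D/S against 0 and 45.3 in N/D, and Pxdn stood at 11.0 and 5.06 in N/D/S against 0 and 8.77 in N/D. Neither neighbour of Myt1l had its profile, with high values in N/D replicate 1 and a low one in N/D/S replicate 2.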

How the data were processed

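RNA of sorted tdTomato+ cells was poly-A selected and sequenced as paired-end reads, and the authors quantified them against mouse transcripts (GRCm38 per the labels) by pseudoalignment in kallisto 0.44.0. They deposited 1 TPM value per gene symbol and library. How transcripts were combined into symbols is not given in the sources used here. TPM keeps no counts, so depth is unknown and no detection limit is given. Symbols turned into dates (24) were left out, and the 34968 symbols in all 4 libraries were joined. Lines and replicate numbers came from the sample titles.

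The 12975 genes that reached 1 TPM in 2 or more libraries, all 3 members among them, were fitted with limma 3.58.1 in R 4.3.3 on log2(TPM + 1), without covariates, with Benjamini-Hochberg adjustment over all of them and a threshold of 0.05. Such fold changes understate those of low genes. The test was first tried on simulated data, at a small spread and at the spread of these libraries. Success was required only at the small spread, which was below that of each member. The trial therefore does not show how well the test finds changes in these data. Family shares were compared by exact permutation. Positions and transcript sequences were read from GENCODE M21 (GRCm38) with Python 3.11.15 and biopython 1.88; the authors' transcriptome release is not named.

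The members and lists were chosen with earlier results of these data known. Named genes are the members, listed genes with at least 10 TPM in any library, the nearest tested neighbours and the 5 closest profiles per member. Lower listed genes are counted only, apart from Notch1 and Cdh5. Notch1 and the markers named (Dcx, Rbfox3, Tubb3, Pecam1 and Cdh5) were chosen after their values were seen. Alternatives were other pseudocounts, filters, scalings and variance models, replicate number as a block, and each library left out. One listed gene, withheld for evaluations, was left out of its list and is not reported.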

Additional observations from a re-analysis of the deposited data

How the results depend on the processing

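Over 8 results, 89 alternative values were computed, of which 79 were counted as having the direction and the call of the reported value. For the family shares only the direction could differ, because the exact permutation test cannot reach 0.05 with these libraries. A fit on the natural log of TPM + 0.5 repeated the values of the pseudocount 0.5 fit, yet its values were counted as well. The count of 79 therefore overstates how stable the results were. The St18 log2 fold change, −0.04 as fitted, turned to 0.083 with quantile normalization and 0.43 with scaling to neuron markers, and spanned −0.76 to 0.67 when single libraries were dropped (0.67 when N/D/S replicate 2 and 0.00577 when N/D replicate 1 was dropped). Myt1 ranged from 0.46 (quantile normalization) to 2.92 (pseudocount 0.1) with all libraries, and from −0.46 (without N/D replicate 1) to 3.47 (without N/D replicate 2) when single libraries were dropped; it was not tested where at least 1 TPM was required in every library. Myt1l stayed below 0 throughout, from −1.61 to −1.09 with all libraries, and from −2.97 (without N/D/S replicate 1) to −0.14 (without N/D/S replicate 2) when single libraries were dropped. Genes past the adjusted threshold numbered 0 in each direction except with a variance trend, at 5 higher and 1 lower, and without N/D replicate 2, at 2213 higher and 160 lower, where every gene got the same standard error; the other fits with a library dropped gave 0. In fits that left out a library, the single library of a line was assumed to vary like the other line. On sums of log2(TPM + 1), differences in share of the family total were 12.9 points for Myt1, −13.0 for Myt1l and 0.167 for St18, and the lines overlapped for Myt1 and St18. On summed TPM they were 3.04 to 15.6 points for Myt1, −37.9 to −18.5 for Myt1l and 7.35 to 30.4 for St18 when single libraries were dropped. The median of all genes moved from 0.26 to −0.05 with quantile normalization and to 0.65 with neuron markers. With a replicate block the standard errors were 1.69 for Myt1, 1.35 for Myt1l and 1.29 for St18, with 0 genes called; deviations of same-numbered libraries correlated at 0.0197, so the numbers were not taken to pair them. Unless stated, the cause of a change was not tested. Depth is unknown, so its limits were not assessed.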
